A study of Mus musculus with 24 samples.

Results

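The genes described here encode the enzymes and regulators with which the liver builds fatty acids from acetyl-CoA: the transcription factor genes Srebf1 and Mlxipl, the acetyl-CoA suppliers Acly and Acss2, the carboxylases Acaca and Acacb, the synthase Fasn, the NADPH supplier Me1, the regulator Thrsp and the desaturase Scd1. They were found in the deposited count matrix by gene identifier, matched to the symbols of the GENCODE M21 mouse annotation with the version suffix dropped. All 10 were present among 53677 identifiers, and 10 of 10 passed the filter on low counts, which kept 14533 genes for testing. Liver RNA was sequenced from 24 mice, 1 library per mouse, of 2 inbred lines. The 129S1/SvImJ mice comprised 5 kept on chow and 6 kept on a high-fat diet (HFD), and the C57BL/6J mice comprised 6 kept on chow and 7 on the high-fat diet. The labels name no engineered allele and no treatment other than the diet. How old the mice were, what the diets contained and how long they were fed is not given in the sources used here. Levels are counts scaled to one common library size after adjustment by edgeR (CPM), and a gene was called when its adjusted p in the edgeR quasi-likelihood test was under 0.05.

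Total counts per library ran from 6707013 to 13124881. The 10 genes together took 0.828% to 1.01% of the counts in 129S1/SvImJ on chow, 0.926% to 1.70% in 129S1/SvImJ on high-fat diet, 0.909% to 3.17% in C57BL/6J on chow and 2.87% to 7.89% in high-fat livers of C57BL/6J. The summed level of 7 hepatocyte markers ran from 94877 to 111931 CPM in 129S1/SvImJ on chow and 79043 to 102302 on high-fat diet, and from 107524 to 115064 in C57BL/6J on chow and 79060 to 96038 on high-fat diet, where the diets did not overlap. Between the strains the summed levels of 6 Kupffer cell markers (50.1 to 138 CPM in 129S1/SvImJ, 145 to 244 in C57BL/6J) and of 6 lymphocyte markers (11.8 to 17.1 and 23.3 to 30.5) did not overlap on chow. On high-fat diet those of 5 sinusoidal endothelium markers (363 to 408 and 297 to 351 CPM) and 5 cholangiocyte markers (13.9 to 26.7 and 29.4 to 152) did not. Transcripts that define fat cells (Adipoq, Lep, Plin1 and Retn) were at or near 0 in 22 libraries, reached 11 counts in 129S1/SvImJ chow replicate 1 and reached 77 counts in C57BL/6J HFD replicate 5. Of the 5 other genes in the list of 9 adipocyte markers, 3 separated the diets in C57BL/6J without overlap: Cfd (0.101 to 8.08 CPM on chow, 41.1 to 256 on high-fat diet), Fabp4 (2.90 to 4.25 and 5.08 to 24.9) and Lipe (27.3 to 30.5 and 35.05 to 62.9). Cidea was at most 0.169 CPM on chow and ran from 0.119 to 39.9 on high-fat diet there, and Pck1 overlapped. The summed level of all 9 ran from 1038 to 2769 CPM in 129S1/SvImJ on chow and 1108 to 2708 on high-fat diet, and from 2312 to 3880 and 1338 to 3159 in C57BL/6J. The libraries were also divided at 2983 CPM of the small nuclear RNA 7SK into a lower and a higher level. This cut was the widest gap on the log2 scale among those leaving at least 2 libraries of each group on either side. A split in every group was therefore set by the rule. In whole liver, fewer cells of a type and less RNA per cell cannot be told apart.

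De novo fatty acid synthesis turns surplus carbohydrate into palmitate. Citrate leaves the mitochondrion and is cleaved to acetyl-CoA, which is carboxylated to malonyl-CoA and then joined, cycle by cycle, on the fatty acid synthase with NADPH as the reductant. In liver the insulin-responsive factor SREBP-1c, encoded by Srebf1, and the sugar-responsive factor ChREBP, encoded by Mlxipl, switch the enzyme genes on, and the liver X receptor raises Srebf1 itself.

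Promoter sequence was available for 9 of the 10 genes in the RefSeq-based table of GRCm38.p6, as 13 windows of up to 250 bases before an annotated start. The windows were searched on both strands for the sterol element TCACNCCAC, the NF-Y motif CCAAT, the E-box CACGTG and the GC box GGGCGG. The NF-Y motif was found in 8 of the 13 windows against 33.8% of all 32851 windows of that length, and GGGCGG in 6 of 13 against 32.7%. TCACNCCAC was found in 1 window of Mlxipl (1.05% of all windows), and CACGTG in another window of Mlxipl (6.02%). Below are 3 genes that fell on high-fat diet in 129S1/SvImJ and Srebf1, which rose, each read 5′ to 3′ on the gene's strand with the motif matches, on either strand, in capitals. The windows are chr11:120824548-120824797 on the minus strand for Fasn, chr11:100528001-100528250 on the minus strand for Acly, chr2:155517793-155517947 on the plus strand for Acss2, where bases that another annotated transcript places in an exon were left out, and chr11:60210472-60210721 on the minus strand for 1 of the 3 starts of Srebf1.
Fasn: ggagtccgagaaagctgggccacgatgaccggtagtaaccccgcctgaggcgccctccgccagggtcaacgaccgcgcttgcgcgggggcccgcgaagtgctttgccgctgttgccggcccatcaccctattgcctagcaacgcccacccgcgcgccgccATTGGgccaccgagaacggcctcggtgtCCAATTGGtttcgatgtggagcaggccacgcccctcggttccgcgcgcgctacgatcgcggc
Acly: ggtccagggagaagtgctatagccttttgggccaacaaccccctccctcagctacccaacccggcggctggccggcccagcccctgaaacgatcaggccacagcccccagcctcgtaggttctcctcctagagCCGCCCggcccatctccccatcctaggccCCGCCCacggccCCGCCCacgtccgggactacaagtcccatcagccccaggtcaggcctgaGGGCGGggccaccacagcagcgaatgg
Acss2: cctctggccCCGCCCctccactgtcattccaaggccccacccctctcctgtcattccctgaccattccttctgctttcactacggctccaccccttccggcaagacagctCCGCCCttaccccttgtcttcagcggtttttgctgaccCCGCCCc
Srebf1: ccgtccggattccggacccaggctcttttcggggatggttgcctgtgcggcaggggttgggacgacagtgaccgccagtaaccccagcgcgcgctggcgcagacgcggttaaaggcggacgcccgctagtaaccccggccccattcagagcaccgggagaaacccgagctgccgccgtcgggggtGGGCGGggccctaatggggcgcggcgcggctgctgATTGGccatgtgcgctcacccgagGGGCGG
The Fasn window carried CCAAT 3 times, and 2 of these overlap head to head 55 to 62 bases before the start. The Acly window carried 4 GC boxes and the printed part of the Acss2 window 3, while the Srebf1 window carried 2 GC boxes and 1 CCAAT. A match is a description of these letters and not evidence that a factor was bound.

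On the scale of CPM per kilobase of annotated exon, Scd1, which puts the first double bond into stearate and palmitate, was the most abundant of the 10 in every group and did not overlap any other member. It stood at 1185 ± 180.1 CPM per kilobase (SD, n = 5) in 129S1/SvImJ on chow and at 8614 ± 2995 (SD, n = 7) in C57BL/6J on high-fat diet. On this scale Acaca, the carboxylase of the cytosol, was lowest in 3 of the 4 groups, with 10.7 ± 0.436 CPM per kilobase (SD, n = 5) in 129S1/SvImJ on chow. The length pools the exons of all annotated transcripts of a gene, 17.1 kilobases for Acaca and 10.2 for Acss2, and the order depends on it. By CPM alone Acaca (183) was above Acacb (138) and Me1 (132) in 129S1/SvImJ on chow. In 129S1/SvImJ on high-fat diet Acacb, the carboxylase at the mitochondrial surface, was the lowest at 6.15 ± 1.90 CPM per kilobase (SD, n = 6), overlapping Acaca at 6.92 ± 1.21. The middle of the order changed with diet: Fasn in 129S1/SvImJ stood at 97.9 ± 19.4 CPM per kilobase on chow, above both regulators, and at 32.7 ± 4.00 on high-fat diet, below both. In C57BL/6J on chow, from Fasn through Acly, Mlxipl, Thrsp, Srebf1, Me1 and Acss2 down to Acacb, each gene's range overlapped that of the next in the order.

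High-fat feeding left 129S1/SvImJ livers with less RNA of the enzymes from acetyl-CoA to palmitate and more of Srebf1 and Scd1. Of the 10 genes 2 rose and 5 fell, against 5.41% of all tested genes that rose and 5.01% that fell (10.4% called in either direction), and the members' median log2 fold change was -0.59 against -0.0040 over all genes. In C57BL/6J 3 rose (Srebf1, Thrsp and Scd1) and 1 fell (Acss2), against 7.66% and 7.2% of all genes (14.9% in either direction), with a median of 0.07. CPM of the diet groups did not overlap for 7 of the 10 in 129S1/SvImJ and for 1 in C57BL/6J, against 7.73% and 3.89% of all genes. The high-fat livers of C57BL/6J also had the lower hepatocyte marker sums and the higher Cfd, Fabp4 and Lipe given above, whose part in these diet changes was not tested.

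**Figure D1:**
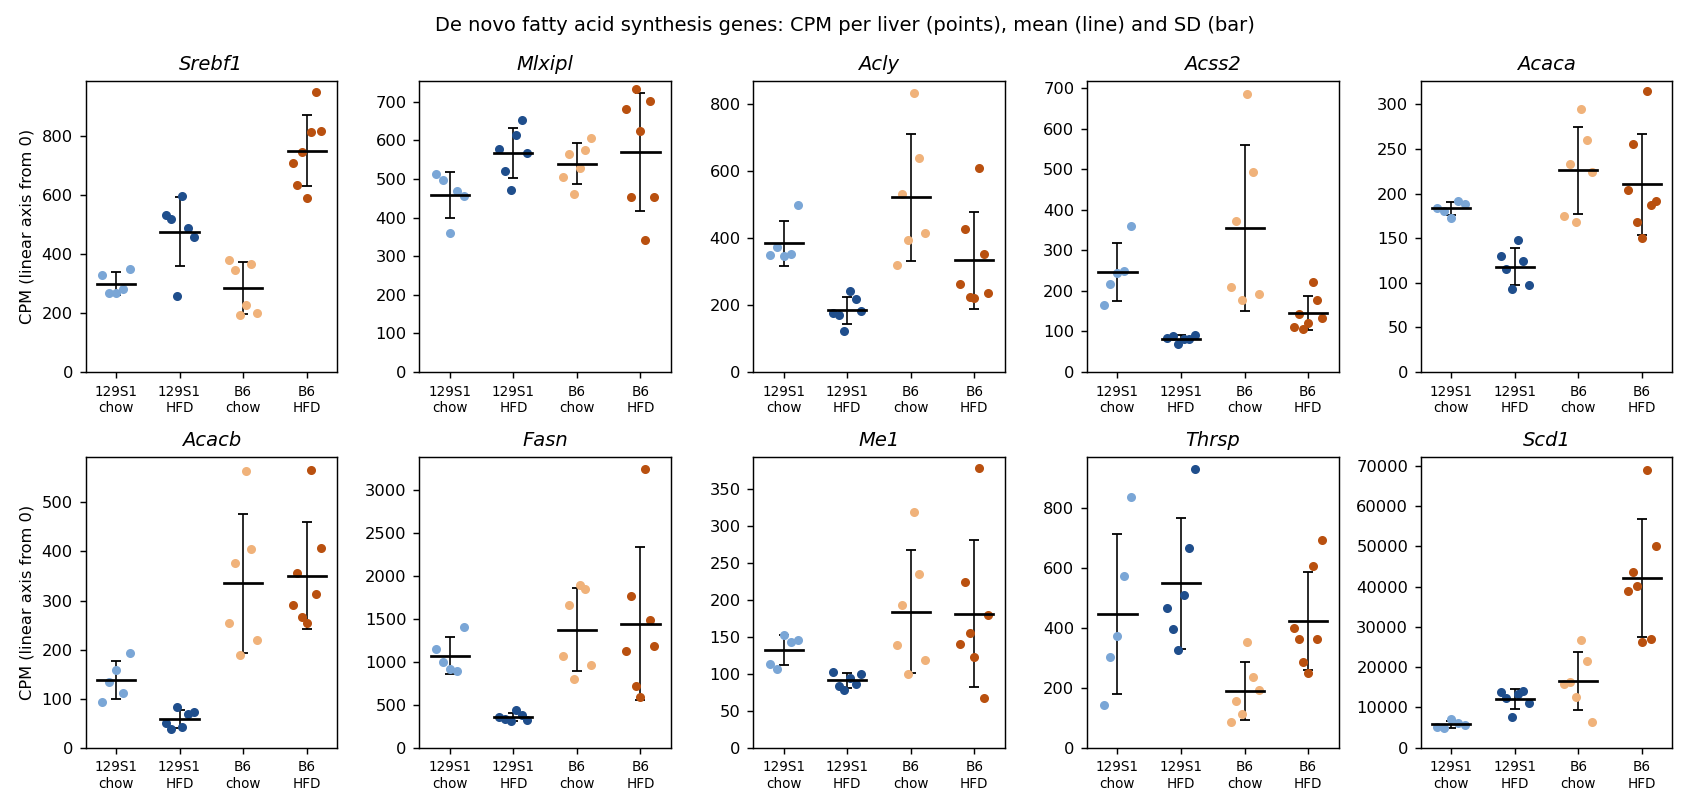
CPM of each of the 10 genes (linear axes from 0) in the 24 livers, by strain and diet; points are livers, lines group means and bars SD. Fasn in 129S1/SvImJ lies between 894 and 1409 CPM on chow and between 315 and 435 on high-fat diet, whereas the C57BL/6J diet groups overlap.

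Of the 2 regulators Srebf1 (mm10 chr11:60199089-60222581, minus strand) was the one that rose. The 5 chow livers of 129S1/SvImJ held 329, 266, 268, 282 and 349 CPM, and the 6 high-fat livers ran from 259 through a median of 503 to 597 CPM. High-fat replicate 3 lay below every chow liver and the other five above all of them. The log2 fold change was 0.67 ± 0.20 (SE, adjusted p = 0.0309 in edgeR). In C57BL/6J the chow livers ran from 195 through 286 to 379 CPM and the high-fat livers from 589 through 744 to 947, with no overlap, and the log2 fold change was 1.40 ± 0.18 (edgeR adjusted p = 2.44e-05). The call in 129S1/SvImJ ended in 8 of 24 fits without 1 library: adjusted p was 0.0519, 0.0822, 0.0671 and 0.0598 without chow replicates 1, 2, 3 and 4, and 0.0584, 0.0548, 0.0695 and 0.0547 without high-fat replicates 1, 2, 4 and 5, all in edgeR. Without high-fat replicate 3 the log2 fold change was 0.79 and the edgeR adjusted p 0.00385.

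The estimated diet difference of Srebf1 was smaller in the lower than in the higher 7SK level in both strains, a contrast that was not itself tested. In C57BL/6J, chow replicates 1, 2 and 5, which had the lower 7SK level, held 379, 346 and 364 CPM of Srebf1, and replicates 3, 4 and 6, which had the higher level, held 195, 225 and 198. Among libraries of the lower 7SK level fitted alone the log2 fold change in C57BL/6J was 0.76 and not called (edgeR adjusted p = 0.141), and among those of the higher level it was 1.96 (edgeR adjusted p = 2.43e-07). With the spread taken from all 24 libraries, an alternative chosen after seeing the data, the lower level gave 0.75 (edgeR adjusted p = 0.0485) and the higher 1.97 (5.91e-07). In 129S1/SvImJ it was 0.30 (edgeR adjusted p = 0.588) in the lower level alone and 0.91 (0.00369) in the higher. The lower level there held 3 chow and 2 high-fat livers, and high-fat replicate 3, the lowest of its group for Srebf1, was among them. With the 7SK level as a covariate over all libraries, the log2 fold changes were 1.42 in C57BL/6J (edgeR adjusted p = 3.07e-05) and 0.68 in 129S1/SvImJ (0.0291).

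Mlxipl (chr5:135089890-135138382, plus strand) encodes ChREBP, which binds DNA with its partner Mlx when glucose metabolites rise. It was 513, 496, 359, 470 and 457 CPM in the chow livers of 129S1/SvImJ and ran from 470.3 through 572 to 653 in the high-fat livers. In C57BL/6J it ran from 462 through 547 to 606 CPM on chow and from 341 through 624 to 734 on high-fat diet. The groups overlapped in both strains, and neither log2 fold change was called (0.30, 95% interval -0.004 to 0.61, in 129S1/SvImJ and 0.08, interval -0.21 to 0.36, in C57BL/6J). Among the 10 genes Mlxipl had the smallest spread between chow livers of C57BL/6J, with a coefficient of variation of 9.70%.

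Acly (chr11:100476353-100528000, minus strand) encodes the cytosolic ATP citrate lyase. Its level was 348, 372, 345, 353 and 499.8 CPM in the chow livers of 129S1/SvImJ and ran from 123 through 179 to 240.4 CPM on high-fat diet, without overlap, a log2 fold change of -1.06 ± 0.27 (SE, edgeR adjusted p = 0.0133). In C57BL/6J the chow livers ran from 319 through 474 to 833 CPM and the high-fat livers from 219.6 through 264 to 609.6, with overlap, and the log2 fold change of -0.65 (95% interval -1.15 to -0.14) was not called (edgeR adjusted p = 0.0765). That difference passed without chow replicate 1 (adjusted p = 0.0449) and without high-fat replicate 5 (log2 fold change -0.86, adjusted p = 0.0132), both in edgeR.

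Acss2 (chr2:155517948-155585724, plus strand) makes acetyl-CoA from acetate and was the only member called lower on high-fat diet in both strains. It was 166, 218, 244, 249 and 360.4 CPM in the chow livers of 129S1/SvImJ and ran from 68.2 through 82.7 to 91.3 on high-fat diet, without overlap. In C57BL/6J it ran from 177 through 291 to 687 CPM on chow and from 106 through 134 to 222 on high-fat diet, where the ranges met. The log2 fold changes were -1.59 ± 0.30 (SE, edgeR adjusted p = 0.00168) and -1.29 ± 0.27 (SE, edgeR adjusted p = 0.00297). The spread of Acss2 between chow livers of C57BL/6J was wide, with a coefficient of variation of 57.4%, against 9.70% between the high-fat livers of 129S1/SvImJ.

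Acaca (chr11:84129672-84401651, plus strand) makes the malonyl-CoA that feeds the synthase. Its level in the chow livers of 129S1/SvImJ was 184, 180.1, 173, 192 and 188 CPM, the tightest group of any member (coefficient of variation 4.06%), and it ran from 92.8 through 119.8 to 148 on high-fat diet. These groups did not overlap, and the log2 fold change was -0.63 ± 0.16 (SE, edgeR adjusted p = 0.0155), a call that ended when genes of low count were kept in the fit (0.0543). In C57BL/6J it ran from 169 through 229 to 295 CPM on chow and from 150.2 through 192 to 315 on high-fat diet, and the log2 fold change was -0.10 (95% interval -0.42 to 0.21, edgeR adjusted p = 0.700).

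Acacb (chr5:114146535-114250761, plus strand) makes malonyl-CoA beside the mitochondrion, where it restrains the entry of fatty acids for oxidation. It stood at 93.5, 135, 158, 112 and 193 CPM in the chow livers of 129S1/SvImJ and ran from 38.7 through 59.7 to 82.9 on high-fat diet, without overlap, a log2 fold change of -1.23 ± 0.29 (SE, edgeR adjusted p = 0.00831). In C57BL/6J the chow livers ran from 188 through 316 to 565 CPM and the high-fat livers from 253 through 313 to 567. Their ranges overlapped, and the log2 fold change was 0.07 (95% interval -0.47 to 0.60).

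Fasn (chr11:120805846-120824547, minus strand) encodes the multifunctional synthase that makes palmitate. The 5 chow livers of 129S1/SvImJ held 1146, 998, 914, 894 and 1409 CPM, and the 6 high-fat livers ran from 315 through 345 to 435. Every chow liver was above every high-fat liver, with a log2 fold change of -1.58 ± 0.33 (SE), that is 2.99-fold lower on high-fat diet (edgeR adjusted p = 0.00326). In C57BL/6J it ran from 799.8 through 1364 to 1888 CPM on chow and from 594 through 1182 to 3239.9 on high-fat diet. The log2 fold change there was 0.07, with a 95% interval of -0.55 to 0.69, so a fall of the size seen in 129S1/SvImJ lay outside it. High-fat replicate 5, the liver with 77 counts of fat-cell transcripts, was the highest, and without it the log2 fold change was -0.25 (edgeR adjusted p = 0.566).

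Me1 (chr9:86581371-86695953, minus strand), the cytosolic malic enzyme, returns NADPH to the pathway. In the chow livers of 129S1/SvImJ it was 114, 107, 152, 144 and 145 CPM, and on high-fat diet it ran from 78.2 through 90.5 to 103. The groups did not overlap, yet the log2 fold change of -0.54 (95% interval -1.22 to 0.13) was not called (edgeR adjusted p = 0.323). It was called when only these 11 libraries entered the fit (edgeR adjusted p = 0.00195), where the spread of the C57BL/6J livers, with coefficients of variation of 45.0% and 54.9%, did not enter. In C57BL/6J Me1 ran from 100.3 through 166 to 319 CPM on chow and from 67.8 through 155 to 378 on high-fat diet, a log2 fold change of -0.02 (95% interval -0.64 to 0.59).

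Thrsp (chr7:97412938-97417730, minus strand) encodes a small thyroid hormone-responsive protein linked to lipogenesis. In 129S1/SvImJ it was 143, 304, 374, 575 and 836 CPM on chow, a 5.85-fold range, and on high-fat diet it ran from 326 through 489 to 929 CPM. In C57BL/6J it ran from 84.5 through 175 to 351 CPM on chow and from 249 through 364 to 694 on high-fat diet. The groups overlapped in both strains. Its log2 fold change was 0.30 (95% interval -0.56 to 1.15) in 129S1/SvImJ and 1.16 ± 0.38 (SE, edgeR adjusted p = 0.0463) in C57BL/6J. The latter call was at the threshold and ended in 15 of 24 fits without 1 library, with an edgeR adjusted p of up to 0.102 (without high-fat replicate 7). The others were chow replicates 1, 2, 3, 5 and 6 and high-fat replicates 1, 2 and 5 of C57BL/6J (0.0571 to 0.0966), and chow replicates 3 and 4 and high-fat replicates 1, 2, 4 and 5 of 129S1/SvImJ (0.0512 to 0.0539).

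Scd1 (chr19:44394455-44407879, minus strand) makes monounsaturated from saturated acyl-CoA and rose on high-fat diet in both strains. The chow livers of 129S1/SvImJ held 5250.2, 4888, 7162, 6084 and 5611 CPM, and the high-fat livers ran from 7514 through 12751 to 14142, without overlap. In C57BL/6J it ran from 6329 through 16091 to 26835 CPM on chow and from 26196 through 40036 to 69019 on high-fat diet, where chow replicate 4 reached into the high-fat range. The log2 fold changes were 1.05 ± 0.28 (SE, edgeR adjusted p = 0.0169) and 1.35 ± 0.26 (SE, edgeR adjusted p = 0.0011). The first ended without chow replicate 2 of 129S1/SvImJ (edgeR adjusted p = 0.0521). The near copies Scd2, Scd3 and Scd4 had group means of 17.3 CPM or less.

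**Figure D2:**
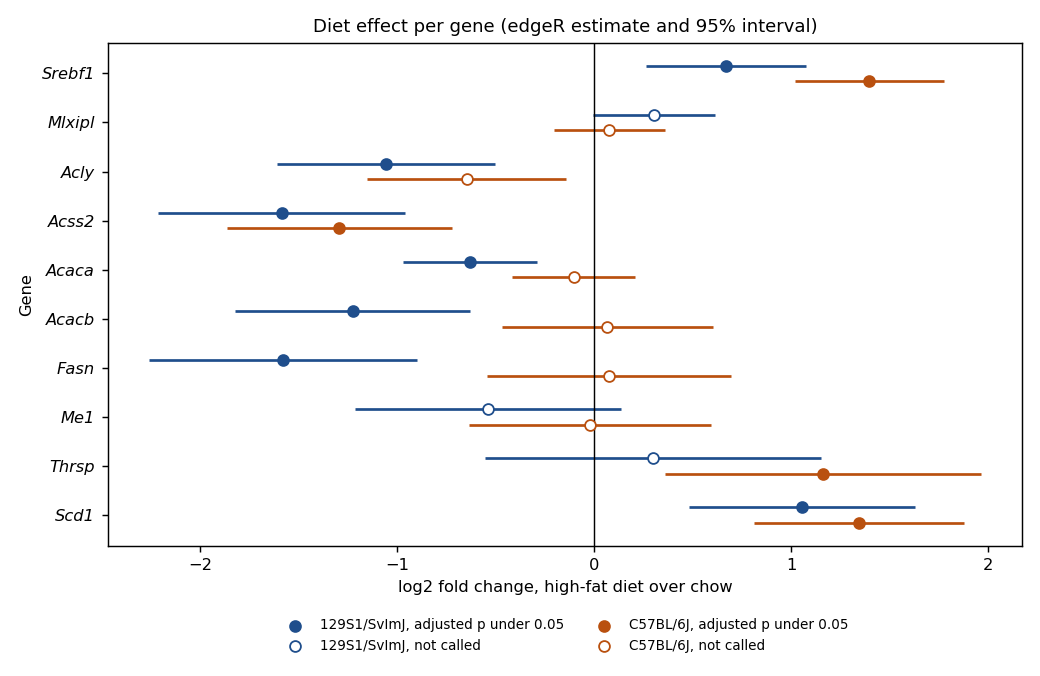
log2 fold change of each gene, high-fat diet over chow, with its 95% interval from edgeR, in 129S1/SvImJ (blue) and C57BL/6J (orange); filled points have an adjusted p under 0.05. Fasn, Acacb and Acaca lie below 0 in 129S1/SvImJ and near 0 in C57BL/6J, while Srebf1 and Scd1 lie above 0 in both strains.

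Single livers stood apart across several members. High-fat replicate 5 of C57BL/6J was the highest of its group for Acly, Acss2, Acaca, Acacb, Fasn, Me1 and Scd1 and the lowest for Mlxipl. High-fat replicate 3 of 129S1/SvImJ was the lowest of its group for Srebf1, Mlxipl, Acly, Acss2, Acaca, Fasn, Me1, Thrsp and Scd1 and the highest for Acacb. Within the lower and the higher 7SK level, with the spread taken from all libraries, diet gave 0 and 1 calls among the 10 genes in 129S1/SvImJ and 1 and 2 in C57BL/6J (0 and 2 with each level fitted alone). All 11 diet calls kept their sign there, with Fasn in 129S1/SvImJ at -1.86 (edgeR adjusted p = 0.104) in the lower and -1.27 (0.165) in the higher level. Of the strain calls described next, 1 (Scd1) and 0 of 3 held in the lower and higher level on chow, where Acacb and Thrsp were lost in both. On high-fat diet Srebf1, Acaca, Acacb, Fasn and Scd1 held in both levels, and Acly, Acss2 and Me1 in neither. With each level fitted alone, Srebf1 (edgeR adjusted p = 0.152) and Fasn (0.0598) were lost too in the lower level on high-fat diet. These comparisons hold 2 to 5 livers per group. Keeping genes of low count in the edgeR fit ended the diet calls of Srebf1 in 129S1/SvImJ (adjusted p = 0.0721) and Thrsp in C57BL/6J (0.1) and the strain calls of Thrsp on chow (0.0654) and Acss2 on high-fat diet (0.0589). Leaving out both libraries with fat-cell transcripts ended the diet calls of Srebf1 in 129S1/SvImJ (0.0596) and Thrsp in C57BL/6J (0.0608) and the strain call of Acss2 (0.0649), in edgeR. A fit of only the groups compared ended the diet call (0.05004) and the strain call (0.102) of Thrsp, in edgeR.

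More of the 10 genes were called between the strains on high-fat diet than on chow, although the interaction test described below called 0 of the 10. On chow Acacb and Scd1 were lower and Thrsp higher in 129S1/SvImJ than in C57BL/6J, against 12.5% of all tested genes lower and 12.6% higher (25% called), and the members' median log2 difference was -0.40. These 3 calls among the 10 are near the share of all genes. On high-fat diet 8 of the 10 were lower in 129S1/SvImJ and 0 higher, against 19.1% and 17.9% of all genes (37% called), with a median of -0.84 against 0.0045 over all genes. CPM of the strains did not overlap for 0 of the 10 genes on chow and for 5 on high-fat diet (Acss2, Acaca, Acacb, Fasn and Scd1), against 15.1% of all genes on either diet. The Kupffer cell and lymphocyte marker sums on chow, and the endothelial and cholangiocyte sums on high-fat diet, also separated the strains, and their part in these differences was not tested. The mean of 129S1/SvImJ on high-fat diet was the lowest of the 4 groups for 6 of the genes, Acly, Acss2, Acaca, Acacb, Fasn and Me1.

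Among the regulators Srebf1 was not called on chow (log2 difference 0.07, 95% interval -0.33 to 0.47) and was lower in 129S1/SvImJ on high-fat diet by -0.66 ± 0.18 (SE, edgeR adjusted p = 0.00579). The ranges met only at their ends there, 597 CPM in replicate 4 of 129S1/SvImJ and 589 in replicate 4 of C57BL/6J. Mlxipl was called on neither diet, with log2 differences of -0.23 (95% interval -0.54 to 0.07) on chow and -0.01 (interval -0.29 to 0.28) on high-fat diet.

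For the enzymes the strain difference on high-fat diet was widest at the carboxylase Acacb and the synthase Fasn. Acacb was 2.42-fold lower in 129S1/SvImJ on chow (log2 difference -1.28 ± 0.29, SE, edgeR adjusted p = 0.00236) and 5.93-fold lower on high-fat diet (-2.57 ± 0.28, SE, edgeR adjusted p = 2.93e-07). Fasn was not called on chow (-0.36, 95% interval -1.03 to 0.32) and was 4.03-fold lower on high-fat diet (-2.01 ± 0.31, SE, edgeR adjusted p = 3.23e-05). Without the high C57BL/6J replicate 5 Fasn was still lower by -1.68 (edgeR adjusted p = 2.44e-05). Acaca was lower on high-fat diet by -0.83 ± 0.15 (SE, edgeR adjusted p = 0.000162). The acetyl-CoA suppliers were lower on high-fat diet by -0.85 ± 0.25 for Acly (SE, edgeR adjusted p = 0.00972) and by -0.82 ± 0.28 for Acss2 (SE, edgeR adjusted p = 0.0256). The call of Acss2 ended without replicate 5 of C57BL/6J (0.0667) or replicate 3 of 129S1/SvImJ (0.0536), in edgeR, although its ranges did not overlap. Me1 was lower by -0.997 ± 0.30 (SE, edgeR adjusted p = 0.0129).

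Scd1 was lower in 129S1/SvImJ on both diets, 2.86-fold on chow (log2 difference -1.52 ± 0.28, SE, edgeR adjusted p = 0.000296) and 3.50-fold on high-fat diet (-1.81 ± 0.26, SE, edgeR adjusted p = 9.42e-06). Mean Scd1 of 129S1/SvImJ on high-fat diet, 12045 ± 2468 CPM (SD, n = 6), lay below that of C57BL/6J on chow, 16582 ± 7116 (SD, n = 6), with overlap. Thrsp was the only member higher in 129S1/SvImJ, by 1.24 ± 0.41 on chow (SE, edgeR adjusted p = 0.0307), and on high-fat diet the difference of 0.38 (95% interval -0.40 to 1.15) was not called. The call on chow ended without chow replicate 4 or 5 of 129S1/SvImJ (0.0707 and 0.134) or replicate 1, 2 or 3 of C57BL/6J (0.0639, 0.0601 and 0.0692), in edgeR.

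**Figure D3:**
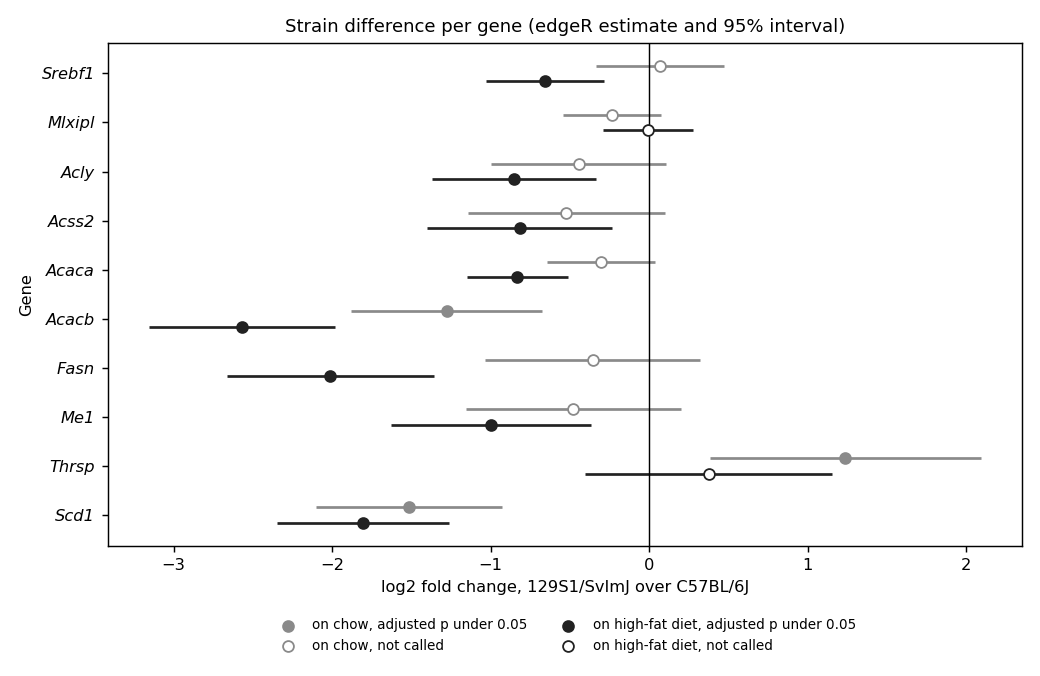
log2 difference of each gene, 129S1/SvImJ over C57BL/6J, with its 95% interval from edgeR, on chow (grey) and on high-fat diet (black); filled points have an adjusted p under 0.05. Acacb and Scd1 lie below 0 on both diets, Fasn lies at -0.36 on chow and -2.01 on high-fat diet, and both intervals of Mlxipl hold 0.

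Whether diet acted differently in the strains was tested by the interaction, the diet log2 fold change of 129S1/SvImJ less that of C57BL/6J. Of all genes 0.296% were called (43, of which 0.172% higher and 0.124% lower), and of the 10 members 0 were called at an adjusted p under 0.05 in edgeR. The 4 members with the smallest p, none of them called, were Fasn (-1.65 ± 0.44, SE, adjusted p = 0.0895), Acacb (-1.29 ± 0.39, SE, adjusted p = 0.125), Srebf1 (-0.73 ± 0.26, SE, adjusted p = 0.197) and Acaca (-0.53 ± 0.22, SE, adjusted p = 0.282), all in edgeR. Fasn passed in DESeq2 (adjusted p = 0.0317) and without high-fat replicate 4 of C57BL/6J in edgeR (0.0377), and without the 2 libraries with fat-cell transcripts its interaction was -1.30 (0.199). For Acss2 (-0.29, 95% interval -1.14 to 0.55) and Scd1 (-0.29, interval -1.06 to 0.47) the interval held 0 and both signs.

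Ratios of 2 genes within a library do not depend on how libraries are scaled, and 6 ratios were compared in 4 comparisons (24 exact two-sided permutation tests, adjusted together). Srebf1 over Srebf2, the sister gene that drives cholesterol synthesis, rose on high-fat diet by 2.01 on the log2 scale in 129S1/SvImJ (exact permutation, adjusted p = 0.00649) and by 2.24 in C57BL/6J (adjusted p = 0.0035, exact permutation). In both strains no high-fat liver overlapped a chow liver: the ratio of counts per kilobase was 1.51 to 2.11 on the log2 scale on chow and 3.11 to 4.31 on high-fat diet in 129S1/SvImJ, and 1.45 to 2.38 and 3.98 to 4.43 in C57BL/6J. Both genes moved with diet. Mean Srebf2 fell from 108.7 to 41.5 CPM in 129S1/SvImJ and from 91.5 to 52.4 in C57BL/6J. Mean Srebf1 rose from 299 to 475 CPM and from 285 to 749. Scd1 over Fasn, the desaturase relative to the synthase, rose by 2.60 in 129S1/SvImJ (adjusted p = 0.00649) and by 1.46 in C57BL/6J (adjusted p = 0.00559, both exact permutation). It was lower in 129S1/SvImJ on chow by -1.10 (exact permutation, adjusted p = 0.0216), and on high-fat diet the strains stood at 6.21 ± 0.26 and 6.16 ± 0.61 (log2 ratio, SD, n = 6 and 7; exact permutation, adjusted p = 0.943).

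The other ratios set further pairs of members against each other. Acacb over Acaca, the mitochondrial against the cytosolic carboxylase, was lower in 129S1/SvImJ by -0.94 on chow (adjusted p = 0.0156) and by -1.76 on high-fat diet (adjusted p = 0.0035, both exact permutation). Diet did not change it past the test in either strain. Thrsp over Fasn rose with diet by 2.02 in 129S1/SvImJ and 1.29 in C57BL/6J (exact permutation, adjusted p = 0.00649 and 0.00932), and was higher in 129S1/SvImJ by 1.46 on chow and 2.19 on high-fat diet (exact permutation, adjusted p = 0.032 and 0.0035). Its call on chow ended without chow replicate 3, 4 or 5 of 129S1/SvImJ or any chow replicate of C57BL/6J (adjusted p from 0.0508 to 0.068, exact permutation). In 129S1/SvImJ Thrsp alone was not called for diet (log2 fold change 0.30), and Fasn fell (-1.58). Mlxipl over Srebf1 fell by 1.41 on high-fat diet in C57BL/6J (exact permutation, adjusted p = 0.0035), and in 129S1/SvImJ the difference of -0.32 was not called (exact permutation, adjusted p = 0.131), except without high-fat replicate 3 (-0.44, adjusted p = 0.0293). Between strains it was higher in 129S1/SvImJ by 0.72 on high-fat diet (exact permutation, adjusted p = 0.0191). On chow the difference of -0.36 was not called (exact permutation, adjusted p = 0.186). Acly over Acss2 rose by 0.47 in both strains (exact permutation, adjusted p = 0.0408 and 0.0466), calls that ended without most single livers of the groups compared (adjusted p up to 0.0929 and 0.0909).

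**Figure D4:**
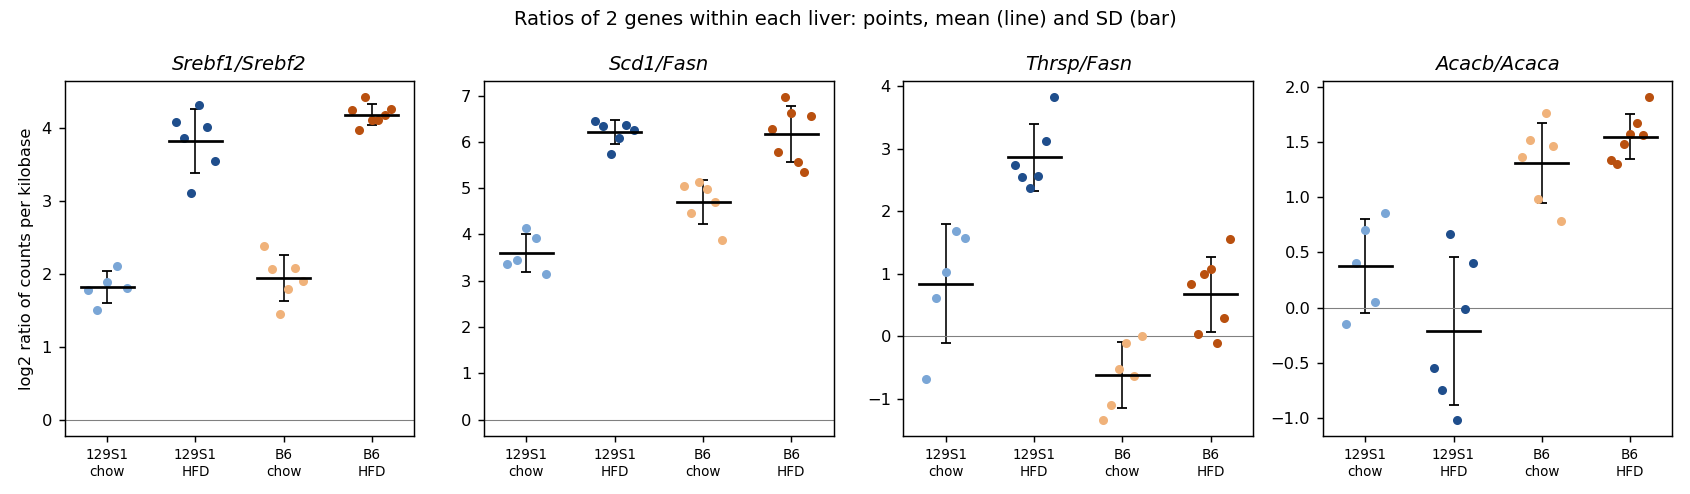
log2 ratio of counts per kilobase of 2 genes in each of the 24 livers, by strain and diet; points are livers, lines means and bars SD. Srebf1/Srebf2 and Scd1/Fasn are higher on high-fat diet in both strains, and Acacb/Acaca is higher in C57BL/6J on both diets.

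Within groups the enzyme genes varied together from mouse to mouse, given here as a description over 24 libraries after each group's mean was removed. Pearson's r of log2 CPM was 0.88 for Acly with Acaca, 0.87 for Acly with Fasn, 0.85 for Acaca with Fasn, 0.79 for Acly with Acss2 and 0.79 for Me1 with Scd1. For Srebf1 r was 0.40 with Fasn and 0.45 with Scd1, and for Mlxipl it was -0.41 with Fasn and -0.53 with Me1. Within single groups of 6 or 7 livers, the 27 relations of Srebf1 with the other members gave no adjusted exact permutation p under 0.05 (lowest adjusted p = 0.244 for Pearson's r and 0.45 for Spearman's rho). These values share library depth and the livers that stood apart.

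Genes outside the 10 with the most similar pattern over the 24 libraries are named by Pearson's r of log2 CPM alone. They were the acyl-CoA synthetase gene Acsl5 for Fasn (0.94) and Acaca (0.93), Fads2 for Acacb (0.94), Acat2 for Acss2 (0.95), Chrna4 for Acly (0.92), Tkt for Me1 (0.91), Tmem135 for Scd1 (0.95), Dbn1 for Srebf1 (0.87), Pcyt1a for Thrsp (0.87) and Irf2 for Mlxipl (0.76).

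Around the regulators, 3 of 6 genes of SREBP processing fell on high-fat diet in both strains and 0 rose. These and the next counts stand against 5.41% of all tested genes that rose and 5.01% that fell in 129S1/SvImJ, and 7.66% and 7.2% in C57BL/6J. Srebf2, the regulator of cholesterol synthesis, fell by 1.39 on the log2 scale in 129S1/SvImJ and by 0.81 in C57BL/6J. Insig1, which holds the precursor in the endoplasmic reticulum, fell by 1.45 and 0.77, and Scap, the escort to the Golgi, fell by 0.47 and 0.58. Targets of SREBP-2 fell in 12 of 12 and 11 of 12 cases, with median log2 fold changes of -3.27 and -1.64. Idi1 (-4.03 and -3.36) and Cyp51 (-3.93 and -2.54) are named for their small p and not for the size of the fall. Mean Sqle fell further, from 119.5 CPM on chow to 0.663 on high-fat diet in 129S1/SvImJ and from 115.8 to 6.79 in C57BL/6J. Targets of the liver X receptor, which also raises Srebf1, rose in 5 of 8 in each strain and 0 fell, with Abcg5, a subunit of the sterol exporter, at 1.40 and 1.33 and Abcg8 at 0.92 and 0.97. The gene of that receptor, Nr1h3, had log2 fold changes of 0.04 and 0.04.

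**Figure D5:**
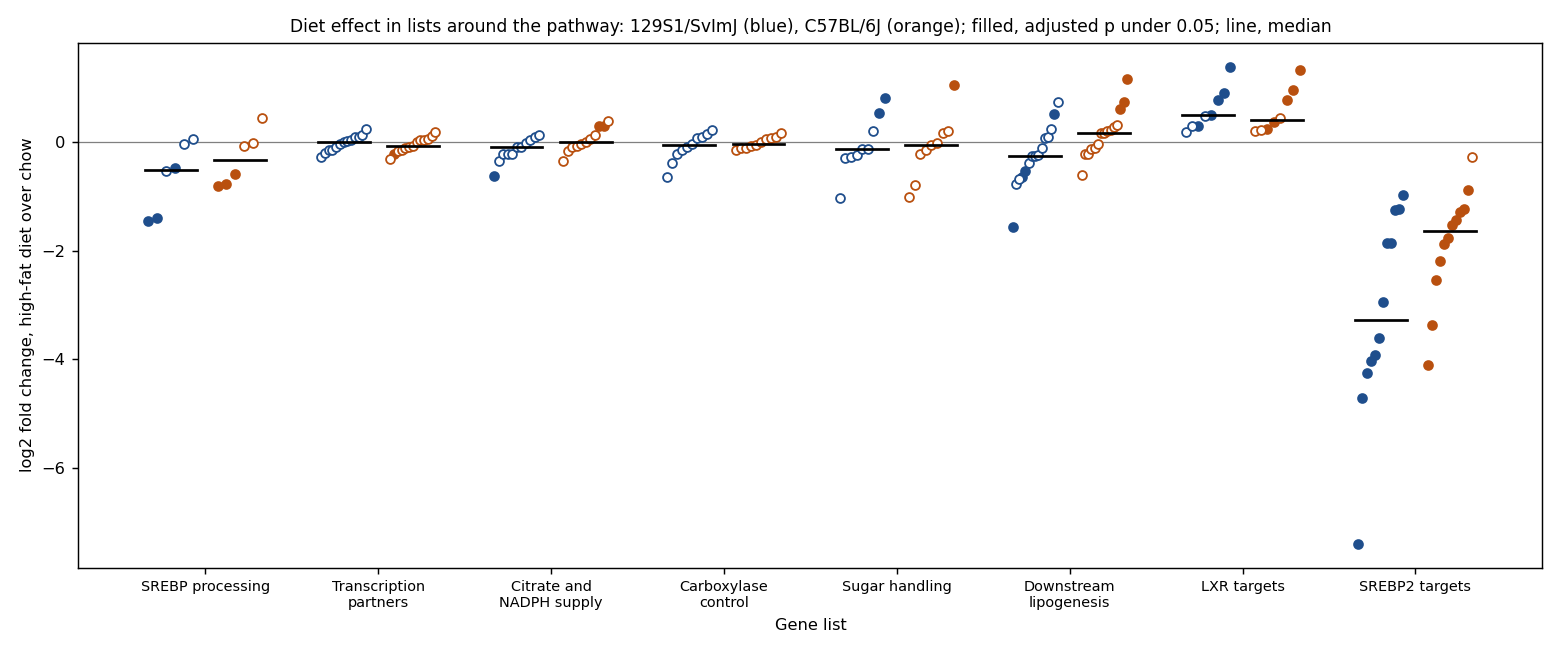
log2 fold change, high-fat diet over chow, of each tested gene in 8 lists around the pathway, in 129S1/SvImJ (blue) and C57BL/6J (orange); filled points have an edgeR adjusted p under 0.05 and lines are medians. SREBP2 targets lie lowest, with medians of -3.27 and -1.64, and the carboxylase control list holds 0 filled points.

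Of 13 transcription partners of the 2 regulators 0 were called for diet in 129S1/SvImJ and 1 fell in C57BL/6J (Sp1, -0.22). Of 10 genes that control the carboxylases, among them the subunits of AMP-activated kinase, 0 were called for diet in either strain by edgeR. In the list of 9 sugar handling genes 2 rose and 0 fell in 129S1/SvImJ, and 1 rose and 0 fell in C57BL/6J. Among them Khk, which phosphorylates fructose, rose in 129S1/SvImJ (0.54). Of 11 tested genes of citrate and NADPH supply, the citrate carrier Slc25a1 fell in 129S1/SvImJ (-0.62), and Mpc1 and Pdha1, which bring pyruvate to acetyl-CoA in the mitochondrion, rose in C57BL/6J (0.30 and 0.29).

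Downstream of the synthase, 1 of 15 tested genes of elongation, desaturation and glyceride assembly rose and 3 fell on high-fat diet in 129S1/SvImJ, and 3 rose and 0 fell in C57BL/6J, against the shares of all genes just given, so that 1 of 15 is near the background. The desaturase gene Fads1 fell by 1.56 on the log2 scale in 129S1/SvImJ, and the acyltransferase gene Agpat2 rose in both strains (0.52 and 0.62). Between strains on high-fat diet, 11 of the 15 were lower in 129S1/SvImJ and 2 higher, against 19.1% and 17.9% of all genes, with a median log2 difference of -0.78. Named for their small p, and not for the size of the difference, the lower ones included Fads1 (-1.43), Fads2 (-1.49) and the elongase gene Elovl6 (-1.69). Of the supply genes 7 of 11 were lower in 129S1/SvImJ on that diet and 2 higher, the latter near the 17.9% of all genes, among the lower Dlat (-0.69), Pgd (-0.99) and Slc25a1 (-0.40). In the carboxylase control list 1 of 10 genes was lower and 1 higher in 129S1/SvImJ on high-fat diet, below the shares of all genes. The lower one was Mid1ip1, a partner of Acaca and of Thrsp (-0.66, edgeR adjusted p = 0.01). The higher one was Prkag2, a kinase subunit (0.50, edgeR adjusted p = 9.67e-05). On chow mean Prkag2 was 68.3 CPM in 129S1/SvImJ and 51.4 in C57BL/6J.

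Several members share their place with genes annotated on the other strand. Srebf1 overlaps Rai1, Acaca overlaps Gm11437, Acacb overlaps the pseudogene Gm13784, Acss2 overlaps Ggt7, Gss and the antisense gene Acss2os, Mlxipl overlaps the antisense gene Gm43500, and Me1 overlaps the antisense gene A330041J22Rik. The library kit keeps the strand, but the strand setting used for counting is not given in the sources used here, so reads of these pairs may not have been kept apart. Fasn, Thrsp and Scd1 overlap no other gene in the annotation.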

How the data were processed

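Per the labels' protocols, total liver RNA was cleared of DNA and of ribosomal RNA before strand-specific library preparation. STAR 2.5.4b, Bowtie2 2.2.3, Trimmomatic 0.36, DESeq2 1.26.0 and the build mm10 are listed in the submitters' processing notes. What each tool did, and with which annotation release and strand setting, is not given in the sources used here. Both strains share this 1 listed build, and its effect on the strain comparisons was not tested.

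The authors deposited raw gene counts, 1 file per library and 1 matrix, whose values were identical for 24 of 24 libraries. A second deposited matrix holds variance-stabilized values on a log2 scale and served 1 alternative. Identifiers were matched to GENCODE M21, and the 95 unmatched of 53677 held 0.0075% of the counts.

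Libraries were grouped by the labels' strain and diet, and each mouse is 1 library. Mouse names share a first number, 2 such numbers in each group, and whether it marks a cage or litter is not given in the sources used here. As a random block in limma-voom it had a correlation of -0.0015, a consensus over all genes that does not describe single genes such as Thrsp. The edgeR and permutation tests took the mice of a group as independent. In R 4.3.3, edgeR 4.0.16 kept 14533 genes by filterByExpr, scaled libraries by TMM and fitted all 24 libraries together by robust quasi-likelihood, each group with its own mean. Tests were two-sided with Benjamini-Hochberg adjustment over all genes tested, and the prior count was 0.125. Libraries of a group differed by more than counting error (chi-square over its degrees of freedom 5.77 to 80.5 over 61 pairs). The precision of a value is limited by the number of mice, 5 to 7 a group, at depths of 6707013 to 13124881 counts. Ratios used a pseudocount of 0.5 counts. Alternatives were other scalings, no count filter, a replicate block, the 7SK level, left-out libraries, limma 3.58.1 and DESeq2 1.42.0. The edgeR procedure was also run on simulated counts, with the outcome not given here. Those counts were drawn independently for each library. That run therefore cannot speak to likeness of mice that share a number or to livers that stood apart.

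The genes described and the lists around them were chosen with earlier results of these data known. The 10 genes are named in every comparison. Of each list, up to 3 called genes with the smallest p are named, and the most similar genes by correlation. One result of the sugar handling list is not reported here. Nr1h3, Nr1h2 and Sqle were named after their values were seen. Promoters were taken from RefSeq, GRCm38.p6.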

Additional observations from a re-analysis of the deposited data

Results flagged for a closer look

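In the 5 chow livers of 129S1/SvImJ, replicate 5 stood apart for Acly, at 499.8 CPM against 372 in the next highest liver. Of 40 combinations of gene and group checked this way 1 stood out, and chance gives about 1 in 20.

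In 3 genes of the surrounding lists the diet effect differed between strains by the interaction test in edgeR. The difference, 129S1/SvImJ minus C57BL/6J on the log2 scale, was -1.38 for Cyp51 (adjusted p = 0.0182), -1.34 for Fads1 (adjusted p = 0.0082) and -2.52 for Mvd (adjusted p = 0.0431). Without both libraries with fat-cell transcripts the edgeR adjusted p was 0.0509 for Cyp51, 0.0186 for Fads1 and 0.116 for Mvd, and within either 7SK level none of the 3 was called (lowest adjusted p = 0.0888, for Fads1). Without 1 library Cyp51 and Fads1 were called in 24 of 24 fits and Mvd in 7 (adjusted p from 0.0223 to 0.113). Mvd was also lost with the replicate block (0.0604), with genes of low count kept (0.0848), and in both limma fits (0.0774 on the variance-stabilized values and 0.137 in limma-voom). Cyp51 went from 197 ± 20.4 to 12.95 ± 1.52 CPM in 129S1/SvImJ (SD, n = 5 and 6) and from 254 ± 55.8 to 43.6 ± 13.1 in C57BL/6J (SD, n = 6 and 7). Fads1 went from 628 ± 71.6 to 213 ± 9.42 CPM and from 670.3 ± 117 to 577 ± 173.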

How the results depend on the processing

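None of the called fold changes of the 10 genes changed sign under the alternatives run. Of 1200 fold changes refitted without 1 library, 31 lost and 3 gained the call, and of 740 under other alternatives 71 lost and 3 gained it. These totals include fold changes not called in the main fit, which could not lose a call. The share lost among called fold changes is therefore larger than the totals convey. The numbers of genes called for diet in 129S1/SvImJ, diet in C57BL/6J, strain on chow and strain on high-fat diet were 1514, 2159, 3636 and 5375, and of members 7, 4, 3 and 8. Within the lower 7SK level, genes called were 305, 312, 2008 and 1549 and members 0, 0, 1 and 3. Within the higher level the first 3 were 283, 784 and 1338 genes, and members were 1, 2, 0 and 5. With the spread over all libraries, an alternative chosen after seeing the data, they were 249, 182, 2020 and 1712 genes and 0, 1, 1 and 5 members in the lower level, and 486, 1292 and 1602 genes and 1, 2, 0 and 5 members in the higher. Fewer libraries enter each of these comparisons.

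Leaving out 1 library gave 937 to 1671 genes and 5 to 7 members for diet in 129S1/SvImJ, lowest without chow replicate 1. For the interaction (43 genes and 0 members) it gave 5 to 170 genes and 0 to 1 members. Other interaction counts were 75 with total-count scaling, 121 with 7SK as a covariate, 2 without both libraries with fat-cell transcripts, 21 in limma-voom with the mouse number as a random block, 297 genes and 1 member in DESeq2, and 1 and 0 within the lower and higher 7SK level (0 and 0 with the spread over all libraries). The cause was not tested.

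Same-numbered replicates deviated together (correlation over 0.1) in 1 of 5, 2 of 6, 4 of 5 and 2 of 6 pairs, so the numbers were not used to pair mice. With the replicate number as a block, the interaction count was 17 and members called were 7, 4, 3, 8 and 0. The lowest level of a member in any library was 38.7 CPM.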
